A study of Mus musculus with 95 samples.

Results

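Kidneys of pristane-treated SNF1 mice at week 12 were compared with those at week 8. They were chosen by their titles in the series, which call the pristane mice diseased, and numbered 8 at week 12 and 8 at week 8, so 16 of the 95 kidneys arrayed. SNF1 mice are F1 hybrids of SWR and NZB that develop lupus-like nephritis with age, and females were used. The pristane mice were given the hydrocarbon oil pristane into the peritoneum at 9 weeks of age, and weeks are counted from then. The untreated mice were SNF1 mice of the same age without treatment, and 10 of week 12 and 10 of week 8 served as the background for the change with age alone. Each array held the RNA of 1 kidney from a separate mouse, so that weeks 8 and 12 were different animals. The longitudinal experiment was run more than once, the labels do not say from which run a kidney came, and the part of the run in the values was not tested. All mice carried the lupus-prone SNF1 background, so the untreated mice were not healthy controls of another strain.

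Pristane sets off a chronic inflammation of the peritoneum, with interferon production and autoantibodies, and immune complexes that settle in the kidney draw in leukocytes through their Fc receptors and complement. T cells and natural killer cells that enter the tissue release interferon gamma, which induces chemokines such as Cxcl10, the guanylate-binding proteins and MHC class II. Injured tubular cells lose transporters and metabolic enzymes, switch on injury genes such as Havcr1 and Lcn2, and re-enter the cell cycle. The kidney also has a circadian clock, in which Clock, Npas2 and Arntl drive the Per, Cry, Dbp, Tef and Ciart genes, whose RNA rises and falls over the day.

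Values are log2 intensities of the arrays, so that a difference of 1 is a doubling, and they stop at a floor of 2.21. The markers fit the label of the tissue. Aqp1, the water channel of the proximal tubule, lay between 10.08 and 10.79 and Slc12a3, the sodium chloride cotransporter of the distal convoluted tubule, between 9.87 and 11.11 in the 16 pristane kidneys. The 16 arrays correlated with each other at 0.986 to 0.998. Genes of the adrenal gland, which lies on the kidney, stood above their mean over all arrays in 3 of 8 pristane kidneys of week 8, in mice 2, 4 and 8, and in 2 of 8 of week 12, in mice 4 and 8. They did so in 4 of 10 untreated kidneys at each week. Between the pristane groups, 11 of the 13 measured genes of this list had a lower mean at week 12. The median change was -0.54, the lowest of the 53 lists, against -0.21 in untreated mice. None of the 13 had an unadjusted p under 0.05 between the pristane groups. Their mean level, relative to the pristane mice of week 8, lay between -1.18 and 2.96 at week 8 and between -1.24 and 2.65 at week 12, and Star, the cholesterol importer of steroid-making cells, had medians of 5.35 and 4.92. Untreated mouse 10 of week 12 stood apart from the other 9 mice of its group in the immune gene lists. Several list values that it moved are also given without it, but not all. In whole kidney tissue, fewer cells of a type and less RNA per cell cannot be told apart.

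Between weeks 8 and 12, 63 of 45037 probe sets changed in pristane kidneys, 20 up and 43 down, at an adjusted p under 0.05, of which 7 changed more than 2-fold. Taken as genes, with 1 probe set each, 12 of 17097 rose (0.0702%) and 19 fell (0.111%). Among probe sets named in the annotation, the rises were led by Cxcl10, the chemokine that draws T cells, and by Npas2, a clock activator. The falls were led by Gpx6, a glutathione peroxidase, and Ciart, a repressor of the clock, stood among the largest falls. Outside the annotation, 1 probe set rose by more than Cxcl10, by 1.48 (adjusted p = 0.0351), and 1 changed by more than Gpx6, by -1.45 (adjusted p = 0.00582). The study's own gene names assign them to Clec4a3 and Tef. The changes were small for most genes, and 3 of the 31 genes passed 2-fold. The number of called probe sets was 109, with 62 of the 63 and all 20 named genes among them, with the adrenal gland level as a covariate, and 5, all higher, over the 11 kidneys left without the 5 with adrenal gland RNA. It was 15 without mouse 2 of week 12 and 412 without mouse 5 of week 12. With arrays centred on their medians 63 were higher and 311 lower. At an unadjusted p under 0.05, 1088 genes were higher (6.36%) and 1320 lower (7.72%). All 8 mice of week 12 lay above all 8 of week 8 for 16 genes (0.0936%) and below them for 26 genes (0.152%).

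In untreated mice no probe set passed an adjusted p of 0.05 by limma between the same weeks, and the smallest adjusted p was 0.727. At an unadjusted p under 0.05, 340 genes were higher (1.99%) and 884 lower (5.17%) at week 12. Without mouse 10 these were 257 (1.50%) and 1356 (7.93%), again with no probe set called. The difference between the change in pristane mice and that in untreated mice also passed for no probe set, with a smallest adjusted p of 1. At an unadjusted p under 0.05, the change was higher in pristane mice for 451 genes (2.64%) and lower for 199 (1.16%). Without mouse 10 these were 1112 (6.50%) and 225 (1.32%), with a smallest adjusted p of 0.146.

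The 4 stretches of sequence that follow are the starts of genes called higher or lower, each with a motif of the pathway in which the gene is placed. They run from 250 bases before to 50 bases after a transcription start, 5′ to 3′ on the strand of the gene, and come from RefSeq on GRCm38.p6. Capitals mark the motif. Ciart and Tef carry the E-box CACGTG that the clock activators bind. Hspa5 carries the ER stress response element, which is CCAAT and CCACG with 9 free bases between them, and Cxcl10 the interferon-stimulated response element, which is GAAA and GAAA with 2 free bases between them. All were searched on both strands.

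Ciart, chr3:95882179-95882478, minus strand: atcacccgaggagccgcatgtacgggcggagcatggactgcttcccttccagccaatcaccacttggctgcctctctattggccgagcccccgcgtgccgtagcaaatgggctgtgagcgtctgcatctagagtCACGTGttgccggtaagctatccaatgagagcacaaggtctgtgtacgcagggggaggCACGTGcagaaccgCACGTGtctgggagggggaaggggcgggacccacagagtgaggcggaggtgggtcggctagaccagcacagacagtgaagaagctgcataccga

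Tef, chr15:81802423-81802722, plus strand: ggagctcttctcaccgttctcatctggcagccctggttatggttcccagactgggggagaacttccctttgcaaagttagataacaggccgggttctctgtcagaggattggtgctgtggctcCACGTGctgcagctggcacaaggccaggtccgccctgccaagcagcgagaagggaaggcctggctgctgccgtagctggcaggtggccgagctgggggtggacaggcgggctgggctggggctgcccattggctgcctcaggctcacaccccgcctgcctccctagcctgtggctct

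Hspa5, chr2:34771840-34772139, plus strand: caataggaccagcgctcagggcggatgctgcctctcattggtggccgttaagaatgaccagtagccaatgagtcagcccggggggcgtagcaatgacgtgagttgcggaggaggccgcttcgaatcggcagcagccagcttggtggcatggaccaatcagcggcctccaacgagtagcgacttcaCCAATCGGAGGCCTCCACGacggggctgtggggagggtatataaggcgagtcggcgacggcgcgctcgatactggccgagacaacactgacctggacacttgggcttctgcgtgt

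Cxcl10, chr5:92348840-92349139, minus strand: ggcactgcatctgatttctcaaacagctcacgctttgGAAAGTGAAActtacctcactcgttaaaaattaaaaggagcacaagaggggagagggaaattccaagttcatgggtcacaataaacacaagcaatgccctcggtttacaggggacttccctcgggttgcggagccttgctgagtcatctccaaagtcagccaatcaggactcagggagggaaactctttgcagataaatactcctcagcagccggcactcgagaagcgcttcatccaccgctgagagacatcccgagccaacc

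The E-boxes of Ciart began 116, 58 and 44 bases before the start, that of Tef 127, the element of Hspa5 65 and that of Cxcl10 213 bases before it. Of all 32851 promoter stretches, 7.15% held an E-box, 0.119% the ER stress element and 3.44% the interferon-stimulated element. Of the 17097 genes measured, 13605 had a stretch, and of these 10.2%, 0.147% and 3.59% held the respective motif. Among the genes with a stretch, an E-box stood in 5 of 15 clock genes, the ER stress element in 6 of 20 genes of the unfolded protein response and the interferon-stimulated element in 9 of 11 interferon gamma genes. An E-box also stood in 4 of 11 genes called higher and in 5 of 18 called lower. Of 2 further clock motifs, the D-box TTANGTAA stood in 1 of 15 clock genes against 2.07% of the genes measured, and the ROR element, AAA and TAGGTCA with 1 free base between them, in 1 of 15 against 0.0735%. The interferon-stimulated element was not counted among the genes of the type I interferon response, and no other interferon motif was searched. These are matches of letters, and binding was not measured.

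Cxcl10 rose 2.62-fold. Its values lay between 5.71 and 6.42 with a median of 6.29 at week 8 and between 6.74 and 8.33 with a median of 7.74 at week 12. All 8 mice of week 12 stood above the highest of week 8, and the log2 change was 1.39 ± 0.214 (SE, adjusted p = 0.0242). In untreated mice the change was -0.18, and -0.63 without mouse 10, which reached 10.10. Ptprc, the leukocyte surface protein CD45, rose by 0.79 ± 0.133 (adjusted p = 0.0341), from a median of 7.68 to 8.57, with mouse 8 at 7.76 inside the range of week 8. Sash3, an adaptor protein of lymphocytes, rose by 0.63 ± 0.107 from a median of 2.83, near the floor, to 3.55. Apobec1, an RNA-editing cytidine deaminase, rose by 0.83 ± 0.148 with no overlap of the groups, from a median of 5.39 to 6.07.

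Eda2r, a receptor of the tumour necrosis factor family that is a target of p53, had the smallest adjusted p of all probe sets. It lay between 3.89 and 4.16 with a median of 3.91 at week 8 and between 4.62 and 5.04 with a median of 4.79 at week 12. The groups stood apart, and the log2 change was 0.84 ± 0.0652 (SE, adjusted p = 0.000115). Untreated mice had medians of 3.96 and 3.97 and a change of 0.14, or 0.08 without mouse 10. Of the 11 measured targets of p53, Eda2r was the 1 called higher, against 0.0702% of all genes. The median change of the 11 was 0.14, and 0.09 in untreated mice. Parpbp, which restrains homologous recombination, rose by 1.0 ± 0.166, from a median of 3.52 to 4.47, and Ckap2, a protein of the mitotic spindle, by 0.51 ± 0.0806, from 2.60 to 3.14. Both separated the groups at low levels.

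Hspa5, the chaperone BiP of the endoplasmic reticulum, rose 1.44-fold from a high level. Its values were 11.34 to 12.09 with a median of 11.80 at week 8 and 12.11 to 12.44 with a median of 12.39 at week 12. The lowest mouse of week 12 stood just above the highest of week 8, and the log2 change was 0.52 ± 0.0932 (SE, adjusted p = 0.0428). A second probe set of Hspa5 rose by 0.69 (adjusted p = 0.0205). Of the 22 genes of the unfolded protein response measured, 13 were higher at an unadjusted p under 0.05 and none lower, against 6.36% and 7.72% of all genes, and the median change was 0.20. Manf, Sdf2l1 and Creld2, which are secreted or retained factors induced by ER stress, had changes of 0.60, 0.62 and 0.61 and did not pass the adjusted test. Ddit3, which brings on cell death under ER stress, had 0.08 and Atf4 0.07. The list had a median of 0.09 in untreated mice. There none of the 22 was higher and 1 was lower at an unadjusted p under 0.05, against 1.99% and 5.17% of all genes. The change was higher in pristane than in untreated mice for 4 of the 22 at that p, against 2.64% of all genes. Without mouse 10 it was higher for 5, against 6.50%. Slc16a1, a transporter of lactate and pyruvate, also rose by 0.81 ± 0.128, from a median of 8.63 to 9.37, with no overlap of the groups.

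**Figure D1:**
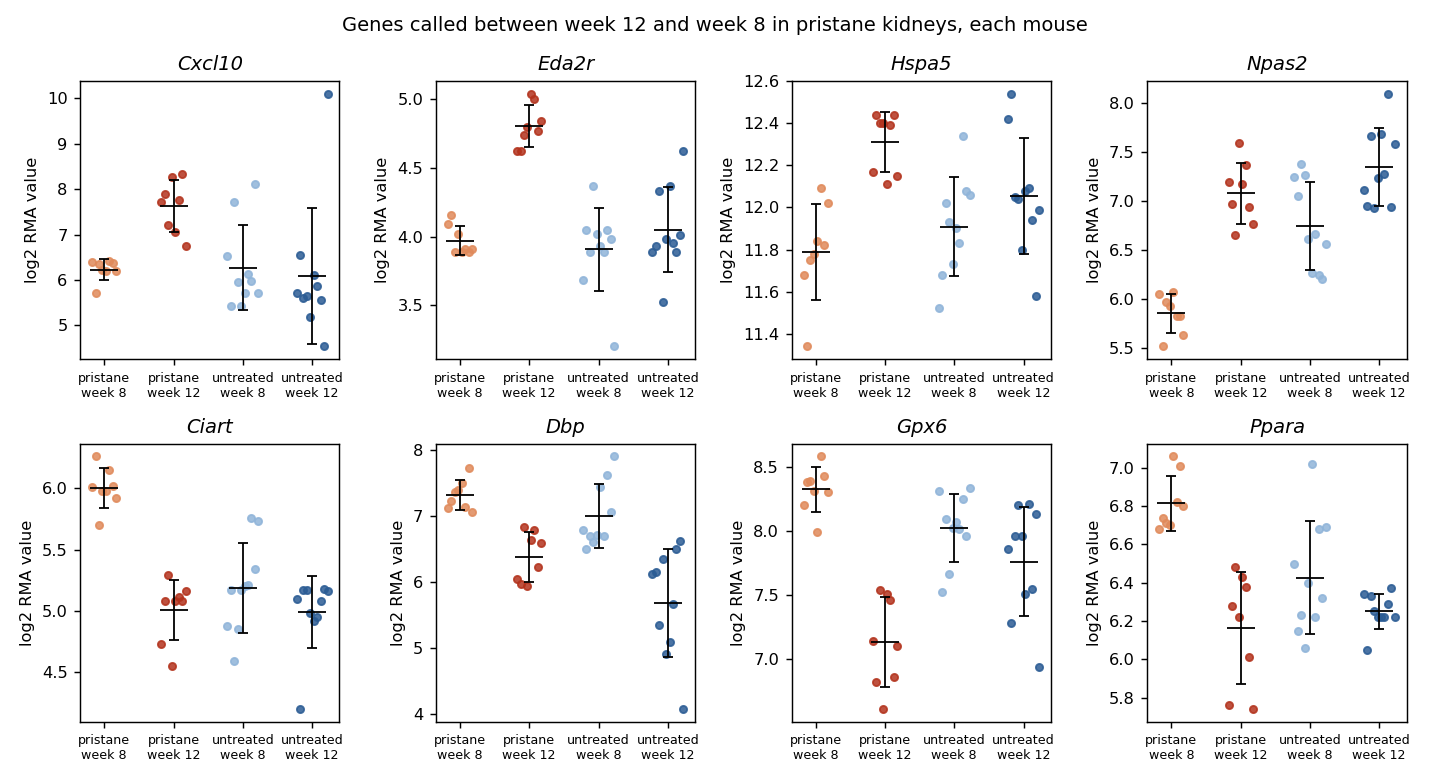
Log2 RMA values (vertical axes) of 8 genes called between weeks 8 and 12 in pristane kidneys, with 1 point for each mouse and bars for the mean ± SD. Columns are the 8 pristane mice of week 8, the 8 of week 12, the 10 untreated mice of week 8 and the 10 of week 12. The pristane groups do not overlap in any of the 8 genes, and untreated week 12 mouse 10 reaches 10.10 in Cxcl10.

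Gpx6 fell 2.29-fold. It lay between 7.99 and 8.58 with a median of 8.35 at week 8 and between 6.61 and 7.54 with a median of 7.12 at week 12. The groups stood apart, and the log2 change was -1.19 ± 0.136 (SE, adjusted p = 0.00384), against -0.26 in untreated mice, or -0.17 without mouse 10. Hes6, a transcription factor that opposes Hes1, had a change of -0.95 ± 0.138 (adjusted p = 0.0174) on a probe set whose probes can also match other transcripts. Its second probe set had -0.47 (adjusted p = 0.0688). Stk32b, a serine/threonine kinase, fell by 0.94 on the log2 scale, Tiprl, a regulator of PP2A-type phosphatases, by 0.73 and Plekhg3, an exchange factor of small GTPases, by 0.60. For each of these the 8 mice of week 12 lay below all of week 8. Second probe sets of Stk32b, Tiprl and Plekhg3 had changes of 0.04, -0.26 and -0.27 and did not pass.

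Ppara, the nuclear receptor that drives fatty acid oxidation, fell by 0.65 ± 0.113 on the log2 scale (adjusted p = 0.0377). It lay between 6.68 and 7.06 with a median of 6.77 at week 8 and between 5.74 and 6.48 with a median of 6.25 at week 12, and the groups did not overlap. Untreated mice lay between 6.06 and 7.02 at week 8 and between 6.05 and 6.37 at week 12, with medians of 6.36 and 6.24. Of 25 genes of fatty acid oxidation and the peroxisome, Ppara was the 1 called lower, against 0.111% of all genes, and none was called higher. 5 of the 25 were lower at an unadjusted p under 0.05, against 7 in untreated mice and 4 there without mouse 10, and the median change was -0.12 against -0.15. The shares of all genes that were lower in these fits were 7.72%, 5.17% and 7.93%.

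The clock genes moved in both directions. Of 17 measured, Npas2 was called higher and Ciart, Dbp and Tef lower, against 0.0702% and 0.111% of all genes. The median change of the list was -0.37, against -0.14 in untreated mice, or -0.15 there without mouse 10. At an unadjusted p under 0.05, 4 were higher and 10 lower, against 6.36% and 7.72% of all genes. Npas2 lay between 5.52 and 6.07 with a median of 5.88 at week 8 and between 6.65 and 7.59 with a median of 7.07 at week 12, a rise of 1.22 ± 0.127 (SE, adjusted p = 0.00171). Ciart went from a median of 5.99 to 5.08, with the lowest of week 8 at 5.70 and the highest of week 12 at 5.29, a change of -0.99 ± 0.102 (adjusted p = 0.00171). Dbp, an output factor of the clock, went from a median of 7.29 to 6.4, with the lowest of week 8 at 7.06 and the highest of week 12 at 6.83, a change of -0.94 ± 0.152 (adjusted p = 0.0286). None of the 3 overlapped between the weeks. Tef, a relative of Dbp, changed by -0.64 ± 0.107 (adjusted p = 0.033), from 10.99 to 10.32. The probe set that only the study's gene names assign to Tef changed by -1.45 (adjusted p = 0.00582), and by -0.66 in untreated mice. A less bright probe set of Per3, a repressor of the clock, fell by 0.96 on the log2 scale (adjusted p = 0.0242), and its brightest had a change of -0.58 and did not pass. Arntl, the partner of Npas2 and Clock, had 0.65 and Cry2 -0.52, and neither passed.

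Sphk2, a kinase that makes sphingosine 1-phosphate and is not in the clock list, was also called, at -0.69 ± 0.117 (adjusted p = 0.0351). Its second probe set had a change of 0.09 and did not pass.

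The same clock genes had changes of like direction in untreated mice. There the change of Dbp was -1.32 ± 0.297, of Tef -0.42 ± 0.0903, of Npas2 0.60 ± 0.186 and of Arntl 0.62, while Ciart had -0.20 ± 0.147. Sphk2, outside the clock list, had -0.91 ± 0.179 in untreated mice. None passed the adjusted test there. Of the 17 clock genes 2 were higher and 6 lower in untreated mice at an unadjusted p under 0.05, against 1.99% and 5.17% of all genes. The difference between the changes of pristane and untreated mice was 0.38 ± 0.362 for Dbp and -0.79 ± 0.189 for Ciart, with an adjusted p of 1 for both. At week 8 the pristane mice lay between 5.70 and 6.26 and the untreated mice between 4.59 and 5.76 in Ciart. Npas2 lay between 5.52 and 6.07 in pristane and between 6.21 and 7.37 in untreated mice of week 8, without overlap, and their ranges overlapped at week 12. The hour at which the kidneys were taken is not given in the sources used here, and its part in these values was not tested.

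The untreated mice were not used to call the 63 probe sets. All 43 that fell in pristane mice also had a lower mean at week 12 in untreated mice, 23 of them at an unadjusted p under 0.05, or 53.5%. Among all probe sets with a lower mean at week 12 in pristane mice, 66.7% had a lower mean in untreated mice and 8.39% did so at that p. Of the 20 that rose, 16 were also higher in untreated mice, or 80%, against 61.9% of all probe sets with a higher mean, and 2 passed the unadjusted p. The change was larger in pristane mice for 40 of the 43 and all 20, which the choice of the probe sets by their change in pristane mice favours. The median change of the 43 was -0.66 in pristane and -0.24 in untreated mice, and that of the 20 was 0.71 and 0.10.

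**Figure D2:**
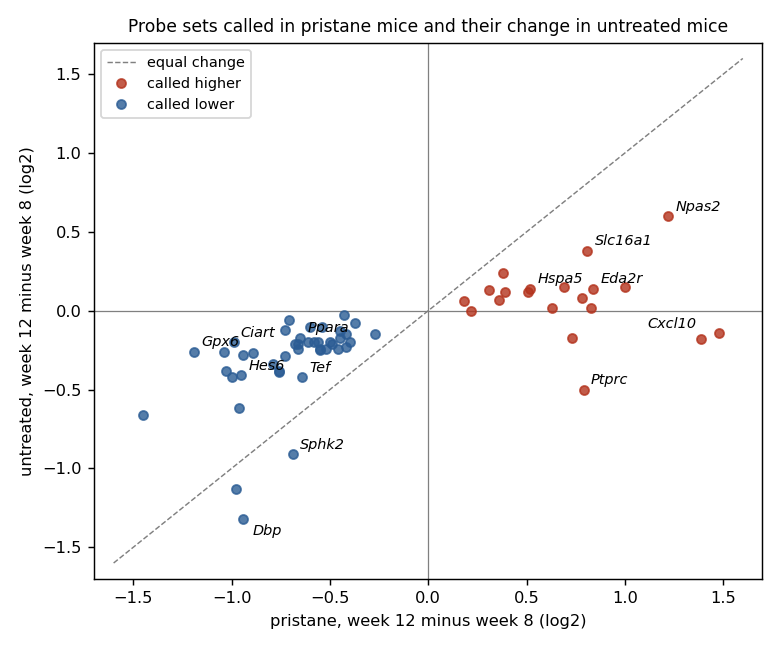
Log2 change from week 8 to week 12 of the 63 called probe sets in pristane mice (horizontal axis) and in untreated mice (vertical axis), with 1 point for each probe set and a dashed line of equal change. All 43 called lower lie below 0 on the vertical axis, with Dbp and Sphk2 below the dashed line, and 16 of the 20 called higher lie above 0.

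Genes of MHC class II, which present peptides to T cells, were higher at week 12 by a median of 0.69, against a median over all genes of 0.000. Of 11 measured, 9 were higher at an unadjusted p under 0.05, against 6.36% of all genes, and none passed the adjusted test. H2-Ab1 lay between 8.73 and 9.74 with a median of 9.13 at week 8 and between 9.44 and 10.85 with a median of 9.99 at week 12. The groups overlapped, with 4 of 8 mice of week 12 above the highest of week 8, and the change was 0.88 ± 0.229 (adjusted p = 0.128). H2-Aa had 0.87 and H2-Ea 0.81. In untreated mice the median of the list was -0.39, and -0.80 without mouse 10. The change was higher in pristane than in untreated mice for 3 of the 11 at an unadjusted p under 0.05, against 2.64% of all genes, and for 9 without mouse 10, against 6.50%.

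Genes induced by interferon gamma had a median change of 0.62. Of 13 measured, 11 were higher at an unadjusted p under 0.05, against 6.36% of all genes. Cxcl10 was the 1 called higher by the adjusted test, against 0.0702% of all genes. Cxcl9, the second ligand of the receptor of Cxcl10, had 1.46 and Iigp1, a GTPase that acts against intracellular microbes, 1.36. The untreated median of this list was -0.30, and -0.63 without mouse 10. The change was higher in pristane mice for 2 of the 13 at an unadjusted p, against 2.64% of all genes. Without that mouse it was higher for 11, against 6.50%. The 23 genes of the type I interferon response had a median of 0.14, and 3 were higher at an unadjusted p, against 6.36% of all genes. The difference between treatments was higher for 0 of these at that p, against 2.64% of all genes, and for 7 without mouse 10, against 6.50%. The lowest p among these was that of Cmpk2, a mitochondrial nucleotide kinase, with a change of 0.39. Whether these medians differ was not tested. The interferon-stimulated genes already lay higher in pristane than in untreated mice at week 8. Their mean level, taken relative to the pristane mice of week 8, had a median of -0.01 there and of -1.02 in untreated mice of week 8, and 0.22 in pristane mice of week 12.

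Markers of macrophages and monocytes had a median change of 0.68. At an unadjusted p under 0.05, 11 of 19 were higher, against 6.36% of all genes, with none called. Adgre1, the F4/80 antigen, lay between 4.29 and 5.56 with a median of 4.57 at week 8 and between 4.59 and 6.5 with a median of 6.2 at week 12. The groups overlapped, and the change was 1.13 ± 0.281 (adjusted p = 0.118). The untreated median of the list was -0.05, and -0.38 without mouse 10. The change was higher in pristane mice for 1 of the 19 at an unadjusted p, against 2.64% of all genes. Without that mouse it was higher for 12, against 6.50%. Fc gamma receptors, which bind immune complexes, had a median of 0.66 over 6 genes, led by Fcgr4 with 1.2 (adjusted p = 0.0883). Complement genes had 0.48 over 13, with C1qb at 1.08, and chemokines 0.41 over 22, with Ccl12 at 1.53. At an unadjusted p, the change was higher in pristane mice for 3 complement genes and 2 chemokines, against 2.64% of all genes. Without mouse 10 it was higher for 11 and 10, against 6.50%. Of the T cell and natural killer cell markers, 4 of 18 were higher at an unadjusted p, against 6.36% of all genes. Their median was 0.05. Cd3d, a chain of the T cell receptor complex, separated the groups, at 4.44 to 4.80 and 4.86 to 5.97, with a change of 0.61 ± 0.128 (adjusted p = 0.0779). B cell markers had a median of 0.09 over 12. Jchain, which joins the chains of IgA and IgM made by plasma cells, had 1.56 in pristane and 1.24 in untreated mice.

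Neutrophil markers did not follow this pattern. Their median change was -0.26, against 0.04 in untreated mice, and none of the 11 had an unadjusted p under 0.05 in pristane mice. The change was lower in pristane than in untreated mice for 4 of the 11 at that p, against 1.16% of all genes. Without mouse 10 it was lower for 1, against 1.32%. S100a8, a calcium-binding protein of neutrophils and monocytes, lay between 3.91 and 9.17 with a median of 6.09 at week 8 and between 3.62 and 6.61 with a median of 5.21 at week 12. Mice 3 and 4 of week 8 were the highest, at 8.06 and 9.17, and the untreated mice of week 8 lay at 2.76 to 3.37. Saa3, an acute phase protein, had medians of 8.18 and 5.56 and a change of -1.86 ± 0.991, the groups overlapping over most of their range (adjusted p = 0.5).

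**Figure D3:**
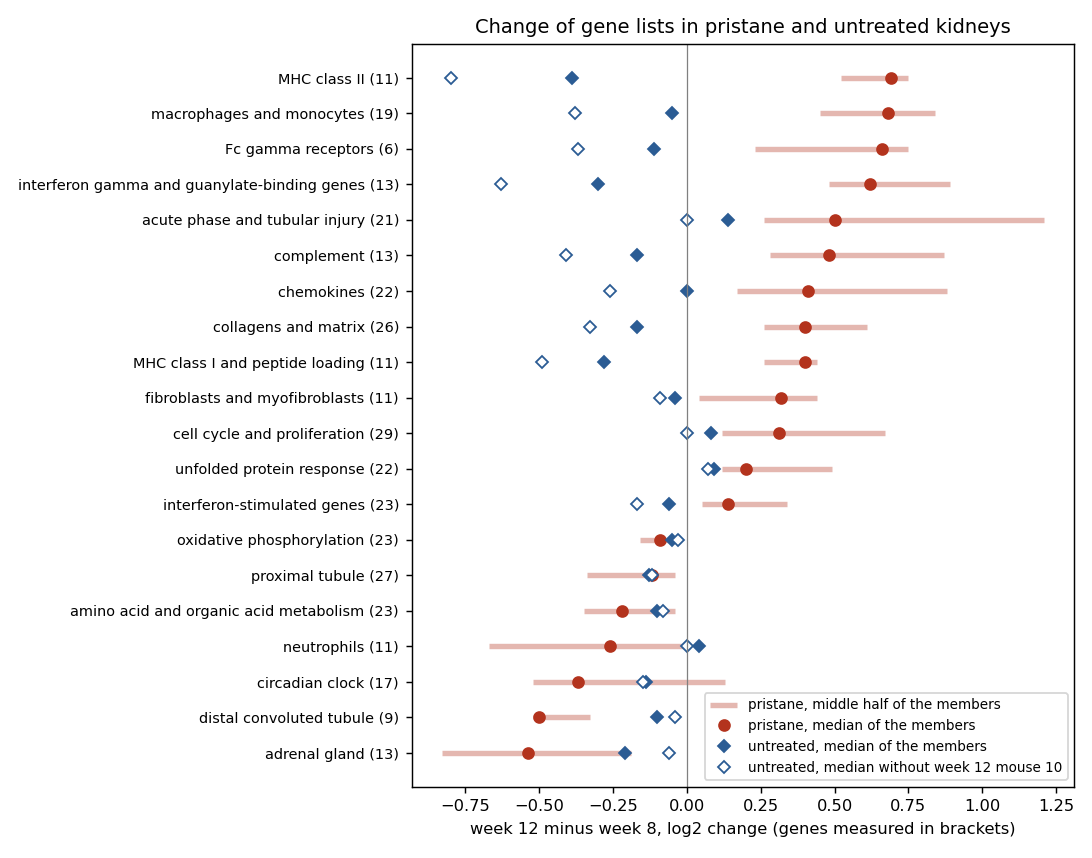
Median log2 change from week 8 to week 12 (horizontal axis) of the measured genes of 20 lists (vertical axis), in pristane mice (circles, with bars from the first to the third quartile of the members) and in untreated mice (filled diamonds, open diamonds without week 12 mouse 10). The highest median in pristane mice is that of MHC class II at 0.69 and the lowest that of the adrenal gland at -0.54. The neutrophil list at -0.26 and the distal convoluted tubule list at -0.50 also lie below 0.

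Cell cycle genes were higher as a list. Of 29 measured, 21 were higher at an unadjusted p under 0.05, against 6.36% of all genes, none was lower and none was called. Their median was 0.31 against 0.08 in untreated mice, or 0.00 there without mouse 10. The change was higher in pristane mice for 7 of the 29 at an unadjusted p, against 2.64% of all genes. Without that mouse it was higher for 18, against 6.50%. Mki67, which marks dividing cells, lay between 4.51 and 5.99 with a median of 5.09 at week 8 and between 5.42 and 7.25 with a median of 5.95 at week 12. Mice 4 and 2 of week 12 were the highest, at 6.94 and 7.25, and the change was 1.08 ± 0.27 (adjusted p = 0.118). Top2a and Prc1, which act in chromosome and cell division, had 1.30 and 1.36. Collagen and matrix genes had a median of 0.40, with 10 of 26 higher at an unadjusted p, against 6.36% of all genes. Col4a1 and Col4a2, the collagens of basement membrane, had 0.52 and 0.58 and Col8a1 1.02. The change was higher in pristane than in untreated mice for 11 of the 26 at an unadjusted p, against 2.64% of all genes. Without mouse 10 it was higher for 16, against 6.50%. Acta2, the smooth muscle actin of myofibroblasts, had 0.76 ± 0.314 in pristane and -0.34 in untreated mice, or -0.51 without mouse 10. Tnc, the matrix protein tenascin C, had 0.83 ± 0.41.

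Genes of the acute phase and of tubular injury had a median of 0.50, and 9 of 21 were higher at an unadjusted p, against 6.36% of all genes. The change was higher in pristane than in untreated mice for 5 of the 21 at that p, against 2.64% of all genes. Without untreated mouse 10 it was higher for 9, against 6.50%. Havcr1, the injury protein KIM-1 of the proximal tubule, lay between 3.69 and 5.86 with a median of 4.09 at week 8 and between 4.09 and 8.77 with a median of 5.95 at week 12. At week 12, 5 mice stood between 5.83 and 8.77 and 3, mice 3, 8 and 5, between 4.09 and 4.49, and the change was 1.65 ± 0.611 (adjusted p = 0.286). The fibrinogen gene Fga had 1.44, Fgb 1.56 and Fgg 1.76. Lcn2, the lipocalin NGAL, had 1.78 with an unadjusted p of 0.0658 by limma. Dnase1l3 and Dnase1, which degrade extracellular DNA, had changes of opposite sign, with 1.32 ± 0.25 (adjusted p = 0.0534) and -1.21 ± 0.379 (adjusted p = 0.202).

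The tubule segments had lower values at week 12 to different degrees. All 9 genes of the distal convoluted tubule had a lower mean. Of these, 7 were lower at an unadjusted p under 0.05, against 7.72% of all genes. The median was -0.50 against -0.10 in untreated mice, or -0.04 there without mouse 10. Slc12a3 lay between 10.69 and 11.11 with a median of 10.86 at week 8 and between 9.87 and 10.76 with a median of 10.41 at week 12. 7 of 8 mice of week 12 lay below the lowest of week 8, and the change was -0.52 ± 0.139 (adjusted p = 0.139). Pvalb, the calcium-binding protein of this segment, had -0.91 and Wnk4, a kinase that regulates Slc12a3, -0.33. The change was lower in pristane than in untreated mice for 5 of the 9 at an unadjusted p, against 1.16% of all genes. Without mouse 10 it was lower for 6, against 1.32%. Of 14 collecting duct genes 3 were lower at an unadjusted p, against 7.72% of all genes, with a median of -0.21. Among the 3 were the water channel Aqp4 at -0.81 and the chloride-bicarbonate exchanger Slc4a1 at -0.88. Slc4a1 is also the band 3 protein of red cells, and the median level of the 5 erythroid genes, which include it, went from 0.01 at week 8 to -0.33 at week 12. The part of red cells in its value was not tested. Of 27 proximal tubule genes 11 were lower at an unadjusted p, with a median of -0.12, against 8 and -0.13 in untreated mice. Of all genes, 7.72% were lower in pristane mice and 5.17% in untreated mice. Slc6a19, the neutral amino acid transporter, had -0.61 in pristane and -0.52 in untreated mice.

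Hpd and Bhmt, enzymes of tyrosine and of homocysteine metabolism, had the largest changes among the metabolic genes. Hpd lay between 9.91 and 11.02 with a median of 10.23 at week 8 and between 6.44 and 10.43 with a median of 8.65 at week 12. 7 of 8 mice of week 12 stood below the lowest of week 8, and mouse 5 at 10.43 did not. The change was -1.86 ± 0.444 (adjusted p = 0.106), against 0.03 in untreated mice, or 0.20 without mouse 10. Bhmt had -1.15 ± 0.296 against 0.13, or 0.33 without mouse 10. Of 23 enzymes of the list for amino and organic acids 9 were lower at an unadjusted p, against 7.72% of all genes. Their median was -0.22. In untreated mice 6 of the 23 were lower, against 5.17% of all genes, with a median of -0.10. Without mouse 10 these were 4, against 7.93%, and -0.08. The change was lower in pristane than in untreated mice for 3 of the 23 at an unadjusted p, against 1.16% of all genes. Without mouse 10 it was also lower for 3, against 1.32%. Nqo1, a quinone reductase, had -0.41 ± 0.0772 and separated the groups without passing (adjusted p = 0.055).

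The mice of week 12 differed among themselves more than those of week 8. Over the 12094 genes above the 40th percentile of mean expression, the median SD was 0.157 at week 8 and 0.223 at week 12, and 77.2% of genes had the larger SD at week 12. In untreated mice the medians were 0.217 and 0.251, and 63.9% had the larger SD at week 12. Mice 2, 4 and 7 of week 12 had the highest levels of the injury list, at 1.10, 1.98 and 1.17 above the mean of week 8, and the lowest of the distal convoluted tubule list, at -0.85, -1.0 and -0.85. The same 3 were the highest in the cell cycle list, at 0.95, 1.0 and 0.66. The injury list lay between -0.54 and 0.57 at week 8, a range that also held the median of week 12, at 0.39. Mice 5 and 8 were the lowest of week 12 in this list, at -0.23 and -0.33. Their Cxcl10 values were 7.06 and 6.74, the 2 lowest of week 12 yet above all of week 8.

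**Figure D4:**
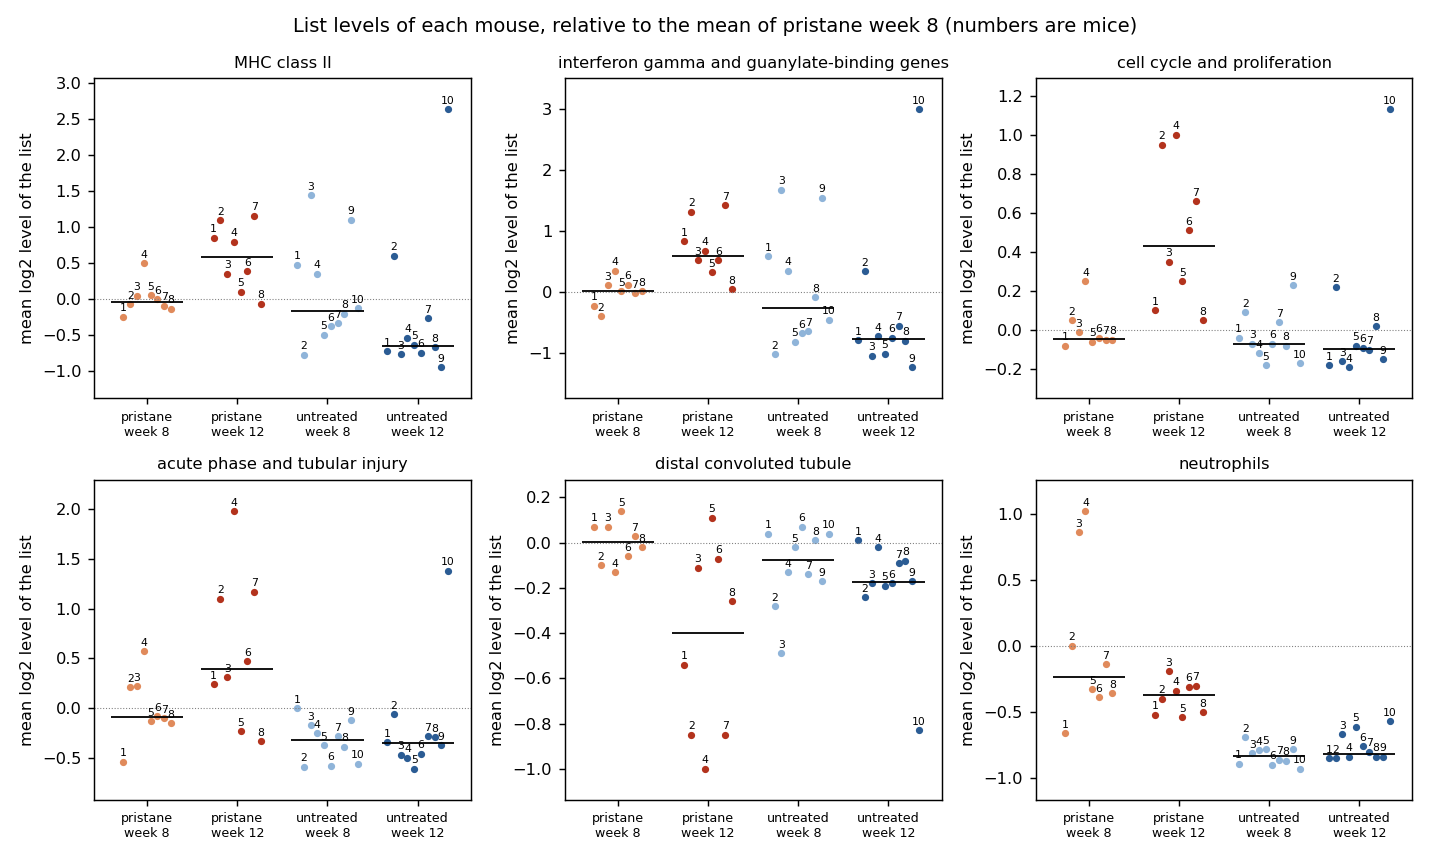
Mean log2 level of 6 gene lists in each mouse (vertical axes), relative to the mean of the 8 pristane mice of week 8, with the number of each mouse and a line at the group median. Mice 2, 4 and 7 of pristane week 12 lie highest for injury and lowest for the distal convoluted tubule, and untreated week 12 mouse 10 stands apart from its group in all lists but that of neutrophils.

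The further course of the named genes differed. At week 14, with 9 pristane mice, the median of Cxcl10 was 8.46, of Eda2r 5.13 and of Gpx6 5.87, each farther from week 8 than at week 12. Hspa5 had a median of 11.89 at week 14, below its 12.39 of week 12, and Dbp had 6.11. In the 5 untreated mice of week 14 the medians were 5.86 for Cxcl10, 3.91 for Eda2r, 7.94 for Gpx6 and 7.19 for Dbp. These levels are a description, and no test between weeks 12 and 14 was run.

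**Figure D5:**
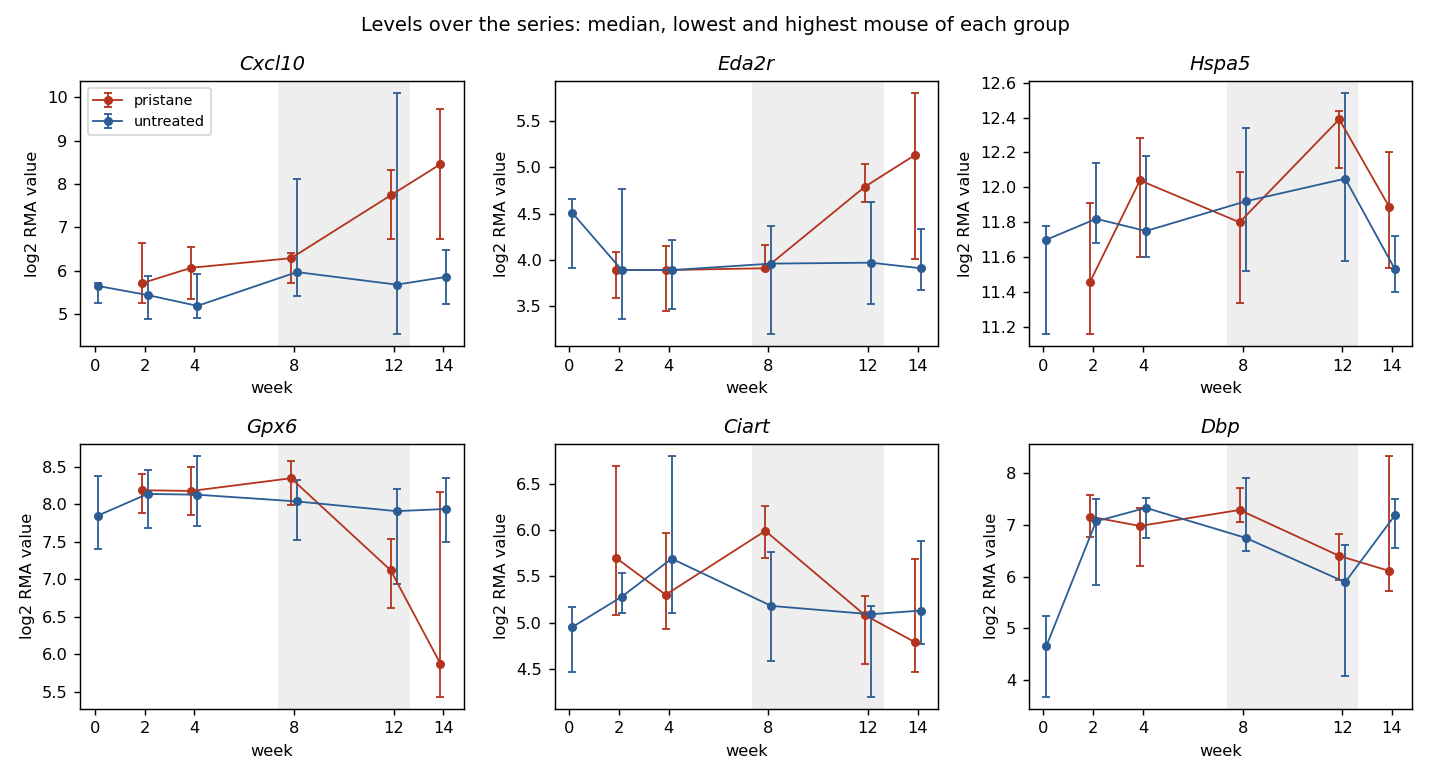
Log2 RMA values (vertical axes) of 6 genes by week (horizontal axes, shaded from week 8 to week 12) in pristane and untreated mice, as the median with bars from the lowest to the highest mouse. In pristane mice the medians of Cxcl10, Eda2r and Gpx6 move away from week 8 to 8.46, 5.13 and 5.87 at week 14, while Dbp is lower at week 12 than at week 8 in both treatments.

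The 2 sets of mice also differed in single genes at an unadjusted p. The largest differences of change by p that were higher in pristane mice included Eda2r at 0.69 ± 0.164, Gucy1a2, a subunit of the nitric oxide receptor, at 0.91 ± 0.211, Adam12, a metalloprotease, at 1.35 ± 0.321, and Slc40a1, the iron exporter ferroportin, at 0.47 ± 0.116. Among those lower were Gpx6 at -0.93 ± 0.214, Ciart, and Zbtb16, a transcription factor induced by glucocorticoids, at -1.28 ± 0.328. In untreated mice the lowest p of a higher gene was that of Depp1, a target of FOXO factors, with a change of 1.01 ± 0.249 against -0.42 in pristane mice. None of these had an adjusted p under 1 for the difference with all mice. Without untreated mouse 10 the adjusted p of the difference was 0.146 for Gpx6, 0.24 for Eda2r, 0.241 for Gucy1a2, Adam12 and Slc40a1, 0.265 for Ciart, 0.282 for Zbtb16 and 0.312 for Depp1.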

How the data were processed

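Kidney RNA was labelled with biotin and hybridised to Affymetrix HT MG-430 PM arrays. The authors normalized the arrays by RMA, with Partek per the labels, and the deposited values are log2 intensities. Whether all arrays were normalized together is not given in the sources used here, and the number of arrays limits the precision. After 104 control probe sets were left out, 45037 remained, and 18.6% of all values lie at the floor.

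The annotation gives 28898 probe sets 1 symbol, 551 several and 15588 none here. A gene was represented by the named probe set with the highest mean over 95 arrays. Of the 63 called probe sets 40 have a symbol in it, and 2 more have 1 only in the study's gene names.

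Groups followed the sample labels. The test was limma 3.58.1 (R 4.3.3, lmFit and eBayes), two-sided, on the 2 groups compared, with Benjamini-Hochberg adjustment over all probe sets. The difference of changes was an interaction contrast over 36 mice. Both fits were tested on simulated data. Lists are described by counts and medians, without a test. The 53 lists and the genes named were chosen with earlier results of these data known: the 10 largest called rises and falls, up to 3 genes for each list described, the genes the study names, and 5 in each direction for the other 2 comparisons. Not every gene so chosen is given in the text. A further member or second probe set named beside these was chosen after its values were seen.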

Additional observations from a re-analysis of the deposited data

Results flagged for a closer look

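Of 156 groups of values checked, 20 genes and 19 list levels in 4 groups each, 26 had a mouse far from the others, and chance gives about 1 in 20. 17 of the 26 were untreated week 12 mouse 10. Its list levels, relative to the mean of pristane week 8 and with the nearest mouse of its group in brackets, were 3.0 (0.34) for interferon gamma genes, 2.63 (0.60) for MHC class II, 2.18 (0.30) for macrophages, 2.06 (0.10) for chemokines, 1.98 (0.15) for MHC class I and 1.94 (0.24) for Fc gamma receptors. They were 1.65 (0.08) for complement, 1.38 (-0.06) for the acute phase and tubular injury, 1.13 (0.22) for the cell cycle, 1.01 (0.13) for collagens, 0.97 (0.17) for fibroblasts, 0.33 (-0.79) for interferon-stimulated genes and -0.83 (-0.24) for the distal convoluted tubule. In genes it lay at 10.10 (6.55) for Cxcl10, 7.68 (5.43) for Apobec1, 5.18 (3.16) for Sash3 and 4.11 (3.07) for Ckap2.

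Pristane mouse 4 of week 8 was far above the next mouse in MHC class II, at 0.49 against 0.05, and in the cell cycle list, at 0.25 against 0.05. Pristane mouse 2 of week 8 had the lowest Cxcl10, at 5.71 against 6.19, mouse 7 the lowest Ckap2, at 2.50 against 2.59, and mouse 3 the lowest Parpbp, at 3.38 against 3.52. Pristane mouse 8 of week 12 had the lowest Ptprc, at 7.76 against 8.37. Untreated mouse 2 of week 12 had the lowest Ciart, at 4.20 against 4.92, and Ppara, at 6.05 against 6.22, and untreated mouse 9 of week 8 the highest Parpbp, at 4.35 against 3.74.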

How the results depend on the processing

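All 20 named called genes kept their direction under every alternative that tested them, and the 63 called probe sets did so wherever they were tested, while their number moved. It was 374 with arrays centred on their medians (63 higher, 311 lower), 432 with quantile normalization (117 and 315), 617 when every group entered 1 fit, 392 after dropping probe sets below the 40th percentile of mean expression and 96 with array weights. With the adrenal gland level as a covariate it was 109, and all 20 named genes passed. With the replicate number as a block it was 11, of which 8 were among the 63. The numbers pair no mice by the labels. Pristane mice of the same number in the 2 weeks correlated between -0.18 and 0.55, 6 of 8 above 0.1, with 3 of 8 closest to their own number. Untreated mice did so between -0.64 and 0.36, 2 of 10 above 0.1, with none closest to its own number. It was 12 at an adjusted p under 0.01 and 7 over 2-fold, and 58 genes in place of 31 were called on the mean over all probe sets. Leaving out 1 mouse gave 15 to 412, and 15 came without mouse 2 and 412 without mouse 5 of week 12. The cause of these shifts was not tested.

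Without the kidneys with adrenal gland RNA, an alternative chosen after seeing the data, 5 probe sets were called, all higher, over 5 mice of week 8 and 6 of week 12, and 3 of the 20 named genes passed. Of the 20 genes, 4 passed with the block. Ciart, Npas2, Eda2r, Gpx6 and Tiprl passed without any 1 mouse, with a highest adjusted p of 0.0221, and the other 15 lost the call in at least 1 of 16 fits. In untreated mice 1 probe set was called with quantile normalization, 67 when every group entered 1 fit and 1 without the adrenal kidneys, and 0 when any 1 mouse was left out. The difference between treatments gave 0 in every setting. Of 520 list medians recomputed, 519 stayed within 1 SD between mice of the reported value, that of neutrophils with the filter was -1.11, and none changed sign. Leaving out 1 mouse gave -0.95 to -0.07 for the adrenal gland list and 0.10 to 0.24 for interferon-stimulated genes.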

Other observations

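Further lists that were not described above also had members at an unadjusted p under 0.05 in pristane mice, none of which passed the adjusted test. Of all genes, 6.36% were higher and 7.72% lower at that p. Among genes of MHC class I and peptide loading 7 of 11 were higher, with a median of 0.40, led by Psmb10, an immunoproteasome subunit, at 0.43 and Tapbp, which loads peptides, at 0.40. Of 16 genes that sense nucleic acids in the cytosol or form the inflammasome 7 were higher, with Casp4 at 0.87 and the cytokine Il1b at 0.70. Of 14 leukocyte adhesion genes 4 were higher, with the integrin chain Itgb2 at 1.11 and Icam1, an endothelial ligand of integrins, at 0.68. In these lists the change was higher in pristane than in untreated mice for no member at that p, against 2.64% of all genes. Without untreated mouse 10 it was higher for 10 of 11, 8 of 16 and 8 of 14, against 6.50%. Egr2, an immediate early transcription factor, had 1.54, and 3 of the 22 genes of its list were higher.

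Genes that respond to glucocorticoids had 4 of 14 lower and none higher, against 7.72% and 6.36% of all genes, with a median of -0.07. Zbtb16 had -1.13, Sult1a1, a sulfotransferase, -0.65 and Per1 -0.51. The change was lower in pristane than in untreated mice for 4 of the 14, against 1.16% of all genes. Of 23 genes of oxidative phosphorylation 6 were lower, with a median of -0.09 and Sdhc, a subunit of succinate dehydrogenase, at -0.29. Of 16 genes of hypoxia and glycolysis 2 were higher and 6 lower. Cytosolic ribosomal proteins had a median of 0.00. Of 12 measured genes that the study names for this model 3 were higher and none lower, with a median of 0.28. Those not given above were Timp1 with 1.21, Sting1 0.64, Saa1 0.33, Ifih1 0.23, Fbn2 0.17, Col1a2 0.04 and S100a9 -0.94. The probe set of Col1a2 lay near the floor, and none of the 12 passed the adjusted test. Aim2, also named by the study, is not among the 12. The probe set that only the study's gene names assign to it had 0.54 ± 0.163 (adjusted p = 0.184). Its change in untreated mice was 0.27, or 0.19 without mouse 10.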
